A study of Mus musculus with 8 samples.

Results

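The genes described here encode enzymes and regulators of glycolysis and of glycogen metabolism. They were taken from a list of 39 gene symbols, and every alternative polyadenylation site (APS, the genomic position where reads from a transcript's 3′ end pile up) that the deposited table lists under one of those symbols was counted, by site and summed per gene. Of the 39 genes, 37 had at least 1 APS. Together they held 293 of the 56483 APSs in the table, which covers 15349 genes. *Eno3* (muscle enolase) and *Pygm* (muscle glycogen phosphorylase) had no APS under their symbols or within their annotated loci, so their levels are not given.

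The table comes from gastrocnemius muscle of male mice analysed by WTTS-seq (whole transcriptome termini site sequencing), a method that sequences the 3′ ends of poly(A)+ RNAs. AMPKα1 KO mice, aged about 6 weeks, and AMPKα2 KO mice, aged about 8 weeks, were each compared with their own WT controls, whose age is not given in the sources used here. There were 2 KO and 2 WT mice in each of the 2 models, with 1 library per mouse, so p-values measure the spread between these mice. Both knockouts were made in the whole body, by deletion of part of the catalytic domain of *Prkaa1* (AMPKα1) or *Prkaa2* (AMPKα2), and the mice received no treatment. The sample labels give C57BL/6 as the strain background of every group and call the mice adult, whereas the methods of the study give 129S2/SvPas for the AMPKα1 KO mice and C57BL/6 for the AMPKα2 KO mice. The models therefore differ in age, possibly in strain, and in the set of libraries, which cannot be told apart from the targeted gene when levels are set side by side. In whole muscle, fewer cells of a type and less RNA per cell cannot be told apart either.

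Skeletal muscle stores glucose as glycogen and burns it through glycolysis when it contracts. Glycogen phosphorylase, switched on by phosphorylase kinase, releases glucose phosphate, which phosphofructokinase commits to glycolysis, while glycogen synthase and its targeting subunits of protein phosphatase 1 rebuild the store. AMPK, the kinase that senses falling cellular energy, is known to phosphorylate glycogen synthase and PFK-2 enzymes, and fast-twitch fibres, which make up much of the mouse gastrocnemius, are rich in the enzymes of this pathway.

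The reads of most of these genes ended where the gene annotation ends the transcript. The most-read APS lay within 24 bases of an annotated transcript end for 22 of the 37 genes, elsewhere in a 3′ UTR for 7, in an intron for 3, in a coding exon for 2, downstream of the gene for 2 and antisense to it for 1. The 30 transcribed bases before the main 3′ end are shown for the genes on which the results turn, from GENCODE release M21 transcripts on GRCm38. Capitals mark AATAAA, the hexamer that directs cleavage and polyadenylation.
Pfkm, chr15:98132422-98132451, plus strand: ctAATAAAtgccagctggccactgtgtttt
Pfkfb3, chr2:11471825-11471854, minus strand: caagaacAATAAAaacctggttgagataca
Ppp1r3c, chr19:36731736-36731765, minus strand: ctctcacttttagAATAAAtgtgcttggta
Aldoa, chr7:126795235-126795264, minus strand: ccactgccAATAAAcaactatttaaggggg
Tpi1, chr6:124810715-124810744, minus strand: catgtaagggaAATAAAcacctgggcctga
Gapdh, chr6:125161853-125161882, minus strand: gaataccatcAATAAAgttcgctgcaccca
Ldha, chr7:46855598-46855627, plus strand: tgtcatgccaAATAAAaccttgaacagtga
Pgam2, chr11:5801640-5801669, minus strand: tggacggggcAATAAAgttacttccgcaca
Pkm, chr9:59679345-59679374, plus strand: aatgtcAATAAAcagcagctgaagcacctg
Of the 33 sites of these genes at an annotated end, 24 carried AATAAA in these 30 bases, 2 carried only the variant ATTAAA and 7 carried neither. Among all 9401 exonic sites at an annotated end in the table, 63.5% carried AATAAA, against 17.1% of 12639 exonic sites away from one. The search covered the transcribed strand only, and a match is a description of the letters in the window.

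A second set of reads ended inside coding exons, and these sites are shown because they were read almost only in the AMPKα2 libraries. The bases before the most-read coding exon sites of 4 genes hold neither hexamer, so nothing is in capitals.
Pkm exon 6, ending at chr9:59670712, plus strand: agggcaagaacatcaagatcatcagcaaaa
Aldoa exon 8, ending at chr7:126795648, minus strand: aggcctggggtgggaagaaggagaacctga
Pgam2 exon 1, ending at chr11:5803484, minus strand: tgctgaagcgggcaatccgcaccctttgga
Pfkm exon 5, ending at chr15:98120948, plus strand: cactggggctgacactttccgttcagagtg
None of the 73 coding exon sites of these genes had AATAAA or ATTAAA in the 30 bases before it, and among all 4514 coding exon sites 1.51% had AATAAA. An A-rich stretch in the 30 bases after the site, which can prime oligo(dT) inside a transcript, was present at 1 of the 73 sites (1.37%), against 16.4% of 4512 coding exon sites in all.

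The libraries held between 2311242 reads (AMPKα1 WT 1) and 3549156 reads (AMPKα2 WT 1), and 3 reads, taken as the smallest count the depth can show, correspond to 0.845 to 1.30 CPM (reads scaled to a common library size) by library totals, before TMM scaling. That floor covers counting error alone, since reads copied by PCR carry no molecular identifier here. Gene-level variation between libraries beyond counting error was far larger in the AMPKα1 model. Its common coefficient of variation in edgeR was 104%, against 26.2% in the AMPKα2 model. With 1 library per mouse, this value does not separate differences between mice from differences between libraries. The AMPKα1 KO libraries were the least alike site by site: of 62 sites of these genes with at least 50 reads in either KO library, 11 (17.7%) had 0 reads in the other, against 0 of 48, 39 and 43 such sites in the other 3 groups. AMPKα1 WT 1, the shallowest library, stood apart as well, with 4.01% of its reads in these genes against 1.93% to 2.56% in the other AMPKα1 libraries. The AMPKα2 libraries had 15.3% to 17.9% of their reads at sites listed under no gene, against 1.88% to 2.85% in the AMPKα1 libraries. The 8 defining genes of striated muscle were present in every library and summed to 54289 and 67441 CPM in AMPKα1 KO against 76497 and 113449 in WT, and to 71122 and 98157 CPM in AMPKα2 KO against 57180 and 58577 in WT.

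The targeted genes do not check the labels here, because their reads were summed over all sites. Where those sites lie relative to the deleted part of the coding sequence was not examined. *Prkaa1* was read 0 and 82 times in AMPKα1 KO against 15 and 0 times in WT (log2 fold change 1.48, edgeR adjusted p = 0.999). *Prkaa2* was read 40 and 71 times in AMPKα2 KO against 87 and 62 times in WT (log2 fold change -0.03, edgeR adjusted p = 0.987). Neither target differed between KO and WT beyond the spread of its model.

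In every library 5 of the genes (*Aldoa*, *Pgam2*, *Gapdh*, *Ldha* and *Tpi1*) stood near the top of the transcriptome. *Aldoa*, the muscle aldolase, ranked between 9 and 26 among all genes by reads over the 8 libraries, and *Pgam2*, the muscle phosphoglycerate mutase, between 9 and 57. *Gapdh* ranked between 17 and 101, *Ldha* between 22 and 98 and *Tpi1* between 41 and 159. In 4 families the muscle isozyme took most of the reads in each library: *Aldoa* 99.4% to 100% of aldolase reads, *Pgam2* 99.8% to 100% of mutase reads, *Pfkm* 91.4% to 99.5% of phosphofructokinase-1 reads and *Ldha* 92.3% to 99.5% of lactate dehydrogenase reads. Among the 4 PFK-2 genes, *Pfkfb3* held 51.5% to 86.2%. *Hk2* held 17.2% to 100% of the reads of *Hk1* and *Hk2* in AMPKα1, where both were read little, and 81.7% to 95.7% in AMPKα2. A WTTS-seq read marks 1 transcript end whatever the transcript's length, so these shares are not scaled by length. Processed pseudogenes and close paralogs are known for *Gapdh*, *Aldoa*, *Tpi1*, *Ldha*, *Pgk1*, *Pgam1* and *Eno1*, and how reads that fit several copies were counted is not given in the sources used here, so the levels of these genes are uncertain to that extent.

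**Figure D1:**
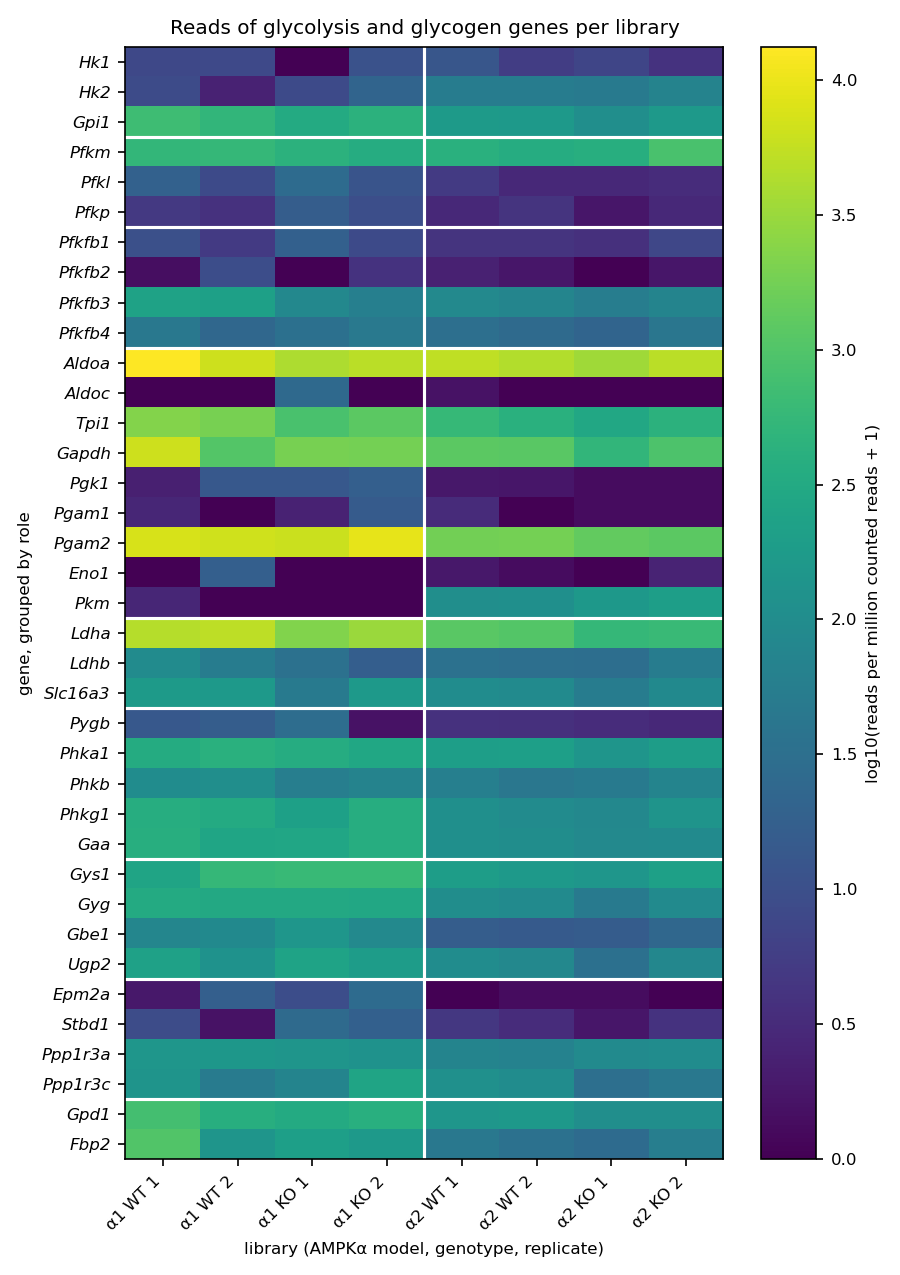
Colour gives log10(CPM by library totals + 1) for each of the genes with an APS (rows, grouped by role) in each of the 8 libraries (columns). *Aldoa* and *Pgam2* are the brightest rows throughout. The 3′ end site of *Pkm* is listed under another gene, so its row holds coding exon sites only. These had 0 to 4 reads in each AMPKα1 library and 290 to 520 in each AMPKα2 library.

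Within each model, KO was set against WT with edgeR's quasi-likelihood test on the summed counts of every gene, with calls at a Benjamini-Hochberg adjusted p under 0.1. In the AMPKα1 model 36 of the genes were tested and 0 were called, in a comparison that called 0% of 13924 genes. At an unadjusted p under 0.05 there were 5 of the 36, against 4.23% of all genes, and DESeq2 called 1 (*Pfkfb3*), against 1.14% of all genes. In the AMPKα2 model 31 were tested and 1 was called (*Ppp1r3c*, lower in KO), against 0.484% of 10536 genes in either direction and 0.228% called lower. At an unadjusted p under 0.05 there were 7 of the 31, against 8.44% of all genes, and DESeq2 called the same gene and no other of these genes, against 1.27% of all genes.

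The SD of the library medians of these genes within groups was 0.259 on the log2 scale in AMPKα1 and 0.0493 in AMPKα2. In the AMPKα1 model 23 log2 fold changes were below 0 and 13 above, with a median of -0.37 against -0.03 over all genes, and without WT 1 the median was -0.0594. Scaling by library totals in place of TMM moved the median over all genes to 0.22 and that of these genes to -0.10. In the AMPKα2 model 19 were below 0 and 12 above, with a median of -0.15 against -0.01 over all genes, and it was 0.0253 without KO 2. Library totals moved these AMPKα2 medians to -0.33 for the pathway genes and -0.19 for all genes.

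Both KO libraries lay below both WT libraries for 13 of the 36 genes in the AMPKα1 model, where 18.9% of all genes did, and above them for 2, where 13.6% did. In the AMPKα2 model they lay below for 10 of the 31 (20.5% of all genes) and above for 10 (18.7%). Of the 30 genes tested in both models, 11 had KO and WT libraries apart in both, 6 of them in the same direction and 5 in opposite directions. The share of all genes apart in both models was not computed, so these counts are a description without a background. With 2 mice against 2, an exact two-sided permutation test of a single gene cannot go below p = 0.33.

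**Figure D2:**
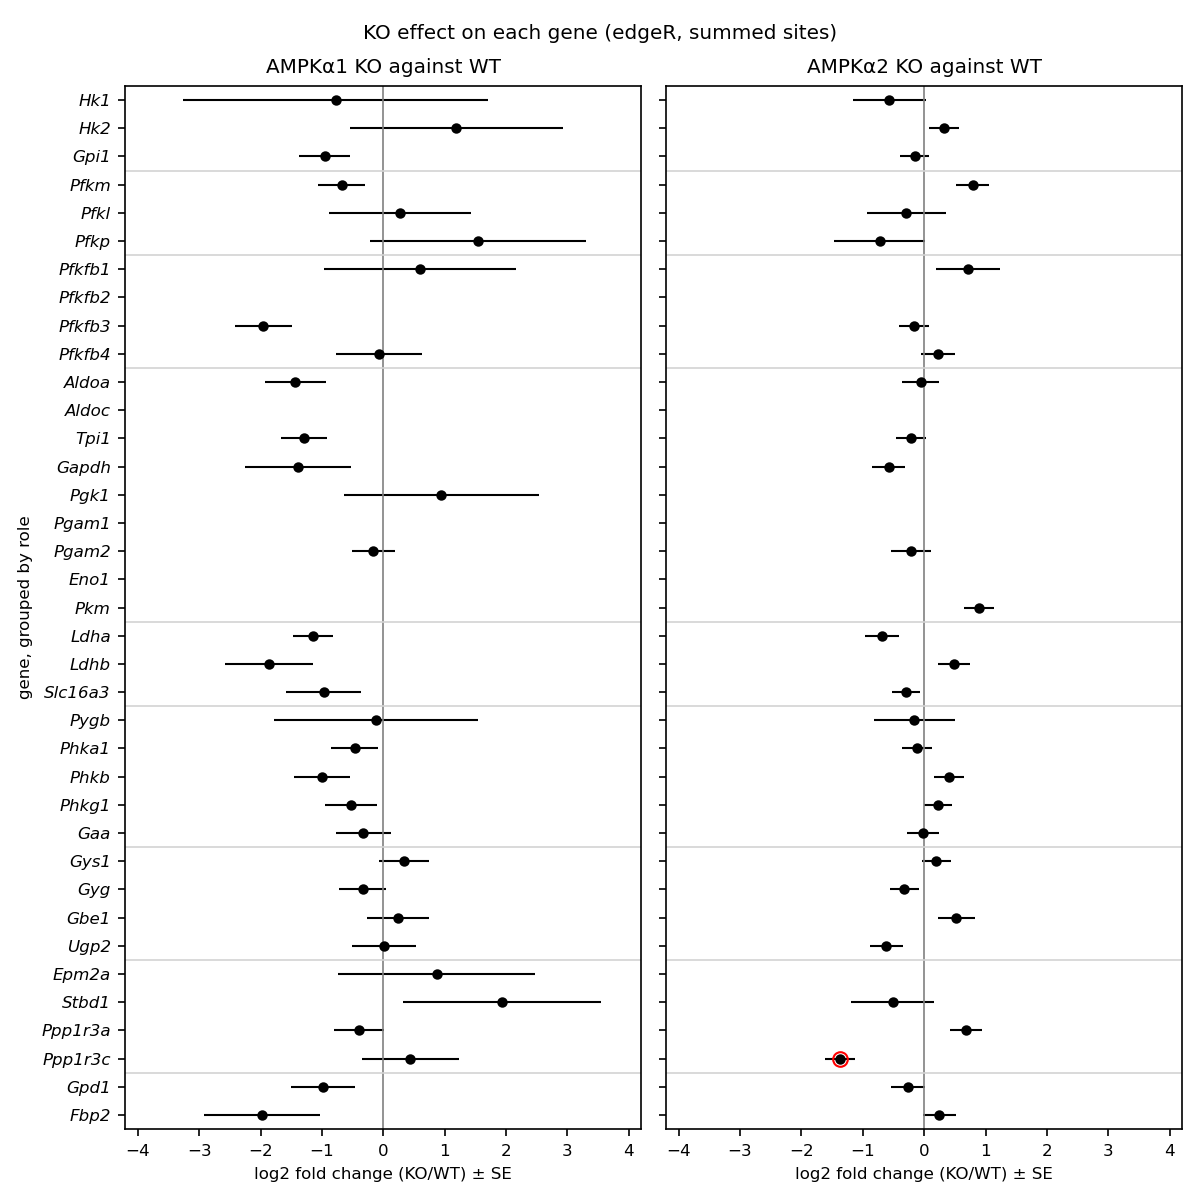
Points give the log2 fold change (KO over WT) of each gene by edgeR with its approximate SE, for AMPKα1 (left) and AMPKα2 (right), grouped by role. The SEs are wider on the left, 32 of the 36 tested AMPKα1 genes are drawn (4 with an SE over 2.5 are left out) and all 31 AMPKα2 genes, and the only called gene, *Ppp1r3c* in AMPKα2, is ringed in red.

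Glucose enters the pathway through hexokinase, which phosphorylates it, and phosphoglucose isomerase (*Gpi1*) then makes fructose phosphate. *Hk2*, the insulin- and exercise-responsive muscle hexokinase, read 80.9 and 69.6 CPM in AMPKα2 KO against 54.9 and 65.4 in WT (log2 fold change 0.32 ± 0.25 SE, edgeR adjusted p = 0.760). Its KO libraries were above its WT libraries by less than the test could separate. In the AMPKα1 model *Hk2* had 25 and 67 reads in KO against 18 and 5 in WT, too few to rank the groups, and *Hk1* had at most 42 reads in any of the 8 libraries. *Gpi1* read 319 and 397 CPM in AMPKα1 KO against 872 and 518 in WT (log2 fold change -0.96, edgeR adjusted p = 0.763, and -0.53 without WT 1). In the AMPKα2 model *Gpi1* read 174 and 172 CPM in KO against 184 and 201 in WT, a difference of -0.15 on the log2 scale.

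Phosphofructokinase-1, the committed step of glycolysis, is encoded in muscle by *Pfkm* (chr15:98092589-98132451, plus strand). *Pfkm* read 431 and 325 CPM in AMPKα1 KO against 667 and 544 in WT, with both KO libraries below both WT libraries (log2 fold change -0.68 ± 0.38 SE, edgeR adjusted p = 0.763). In the AMPKα2 model it read 626 and 875 CPM in KO against 434 and 436 in WT, with both KO libraries above (0.79 ± 0.27 SE, edgeR adjusted p = 0.406). The difference between the models was 1.45 on the log2 scale and did not pass (edgeR interaction adjusted p = 0.530), and the AMPKα2 value rests on internal sites, as described with them below. The liver and platelet isoforms *Pfkl* and *Pfkp* had at most 91 reads in any library.

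PFK-2 enzymes make fructose 2,6-bisphosphate, the strongest activator of phosphofructokinase-1, and *Pfkfb3* (chr2:11471433-11554077, minus strand) encodes the isoform with the highest kinase activity. *Pfkfb3* read 80.5 and 53.9 CPM in AMPKα1 KO (mean 67.2 ± 18.9 SD, n = 2) against 303 and 218 CPM in WT (260 ± 60.0 SD, n = 2). Every KO library was below every WT library, and the WT level was 3.87-fold that of KO by the fit. The log2 fold change of -1.95 ± 0.46 SE had an adjusted p of 0.763 in edgeR and 0.0836 in DESeq2, so the call depends on the tool. Among AMPKα2 mice *Pfkfb3* read 89.8 and 72.8 CPM in KO against 91.0 and 91.4 in WT (-0.17 ± 0.24 SE, edgeR adjusted p = 0.896). The difference between the models, 1.76 ± 0.50 SE on the log2 scale, did not pass (edgeR interaction adjusted p = 0.466). *Pfkfb4* overlapped between KO and WT in both models, at 22.3 to 54.6 CPM in the AMPKα1 libraries and 30.8 to 41.1 in the AMPKα2 libraries. *Pfkfb1* had at most 59 reads and *Pfkfb2* at most 29 in any library, and the only site listed for *Pfkfb2* lies antisense to it.

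Aldolase and triose phosphate isomerase split and interconvert the sugar phosphates. *Aldoa* read 3969 and 4540 CPM in AMPKα1 KO against 16679 and 6278 in WT, with KO below WT in every library (log2 fold change -1.43 ± 0.50 SE, edgeR adjusted p = 0.763, DESeq2 adjusted p = 0.134). Much of that difference came from WT 1, and without it the log2 fold change was -0.56. Among AMPKα2 mice *Aldoa* read 5517 and 5025 CPM in KO against 5574 and 5393 in WT, with overlap (-0.06). *Tpi1* read 844 and 1089 CPM in AMPKα1 KO against 2850 and 1906 in WT, again without overlap (-1.30, edgeR adjusted p = 0.763, DESeq2 adjusted p = 0.101). Among AMPKα2 mice *Tpi1* read 485 and 455 CPM in KO against 590 and 502 in WT (-0.22).

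Glyceraldehyde phosphate dehydrogenase, often used as a reference gene, varied widely among the AMPKα1 libraries. *Gapdh* read 1839 and 1677 CPM in AMPKα1 KO against 8205 and 1024 in WT, so the KO values lay between the WT values. Its log2 fold change of -1.39 ± 0.86 SE turned to 0.78 without WT 1. Among AMPKα2 mice it read 848 and 945 CPM in KO against 1265 and 1418 in WT, with both KO libraries lower (-0.58, edgeR adjusted p = 0.589). *Pgam2*, in contrast to *Aldoa*, overlapped in both models, at 6060 and 8331 CPM in AMPKα1 KO against 9496 and 6590 in WT (-0.16), and at 2183 and 1261 CPM in AMPKα2 KO against 1802 and 2181 in WT (-0.21).

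The other genes of this stretch of the pathway were barely read at the sites listed for them. *Pgk1*, which encodes phosphoglycerate kinase, had a single site, in intron 2, with at most 55 reads in a library. *Eno1*, the non-muscle enolase, had 57 reads in AMPKα1 WT 2 and 0 in the other 3 AMPKα1 libraries, all at intronic sites. *Aldoc*, the brain aldolase, had 86 reads in AMPKα1 KO 1 and 0 in the other 3 AMPKα1 libraries, and *Pgam1* had at most 47 reads in any library.

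Lactate dehydrogenase A turns pyruvate into lactate, and the transporter encoded by *Slc16a3* (MCT4) carries lactate out of glycolytic fibres. *Ldha* read 2128 and 2834 CPM in AMPKα1 KO against 5812 and 5136 in WT (log2 fold change -1.14 ± 0.33 SE, edgeR adjusted p = 0.763, DESeq2 adjusted p = 0.134). Among AMPKα2 mice it read 894 and 643 CPM in KO against 1222 and 1257 in WT (-0.69, edgeR adjusted p = 0.533). *Ldha* thus had both KO libraries below both WT libraries in both models, without passing the test in either. *Ldhb*, the heart-type subunit typical of oxidative fibres, read 32.7 and 14.6 CPM in AMPKα1 KO against 121 and 51.6 in WT (-1.86 ± 0.71 SE, edgeR adjusted p = 0.763, and -1.12 on the log2 scale without WT 1). In AMPKα2 mice *Ldhb* went the other way, at 48.4 and 53.4 CPM in KO against 34.6 and 38.4 in WT (0.48, edgeR adjusted p = 0.654). The difference between the models was 2.31 on the log2 scale and did not pass (edgeR interaction adjusted p = 0.543). *Slc16a3* read 48.4 and 150 CPM in AMPKα1 KO against 218 and 171 in WT (-0.97), and 87.3 and 90.1 CPM in AMPKα2 KO against 106 and 112 in WT (-0.30), below WT without overlap in both. The AMPKα1 value of *Slc16a3* was -0.38 without KO 1 and -2.01 without KO 2.

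**Figure D3:**
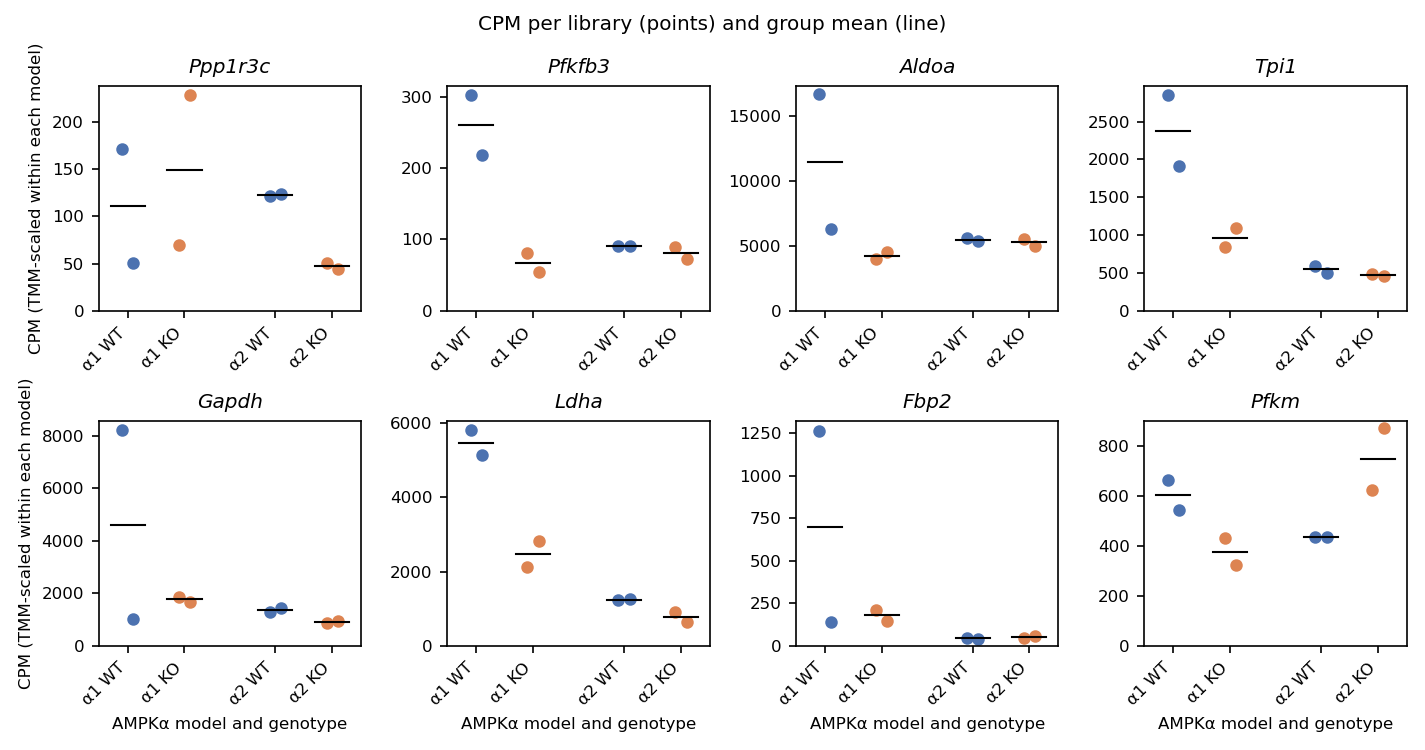
CPM of 8 of the genes in each library (points) with the group mean (line), for WT and KO of each model, on axes that start at 0 and with TMM scaling done within each model. *Ppp1r3c* separates WT (122 and 124 CPM) from KO (50.3 and 44.7 CPM) in AMPKα2, *Pfkfb3* separates them in AMPKα1, and the high *Aldoa*, *Gapdh* and *Fbp2* points are all AMPKα1 WT 1.

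Phosphorylase kinase, which switches on glycogen phosphorylase, has the regulatory subunits *Phka1* and *Phkb* and the catalytic subunit *Phkg1*. *Phkb* read 56.1 and 62.4 CPM in AMPKα1 KO against 128 and 108 in WT (log2 fold change -0.99, edgeR adjusted p = 0.763). In AMPKα2 mice it read 76.4 and 72.4 CPM in KO against 61.0 and 50.7 in WT (0.41, edgeR adjusted p = 0.692). The KO libraries of *Phkb* were thus below WT in one model and above it in the other, and neither difference passed. *Phka1* had a log2 fold change of -0.46 in AMPKα1 and -0.12 in AMPKα2, and *Phkg1* one of -0.52 and 0.22. *Gaa*, the lysosomal enzyme that digests glycogen, overlapped between KO and WT in both models (-0.32 and -0.03). *Pygb*, the brain phosphorylase, had at most 99 reads in any library.

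Glycogen is built by glycogenin (*Gyg*), UDP-glucose pyrophosphorylase (*Ugp2*), glycogen synthase (*Gys1*) and the branching enzyme (*Gbe1*), and none of the 4 passed the test in either model. *Gys1* read 575 and 539 CPM in AMPKα1 KO against 326 and 553 in WT (log2 fold change 0.34), with overlap. In AMPKα2 mice *Gys1* read 239 and 225 CPM in KO against 205 and 200 in WT (0.20). *Ugp2*, which makes the glucose donor, read 52.2 and 81.1 CPM in AMPKα2 KO against 105 and 101 in WT (-0.62, edgeR adjusted p = 0.577, and -0.34 without KO 1), while its AMPKα1 libraries overlapped (0.01). *Gbe1* read 24.2 and 22.9 CPM in AMPKα2 KO against 16.1 and 16.6 in WT (0.52, edgeR adjusted p = 0.669) and had a log2 fold change of 0.24 in AMPKα1. *Gyg* was below WT in every KO library of both models, with log2 fold changes of -0.34 and -0.32.

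Glycogen-targeting subunits bring protein phosphatase 1 to the glycogen particle, where it activates glycogen synthase. *Ppp1r3c* (PTG, chr19:36731731-36736653, minus strand) was read 79 and 113 times in AMPKα2 KO against 416 and 261 times in WT. On the CPM scale these were 50.3 and 44.7 in KO (mean 47.5 ± 3.99 SD, n = 2) and 122 and 124 in WT (123 ± 1.12 SD, n = 2), with the groups far apart for their spread. *Ppp1r3c* was 2.59-fold lower in AMPKα2 KO than in WT (log2 fold change -1.37 ± 0.24 SE, edgeR adjusted p = 0.0538, DESeq2 adjusted p = 0.0153). With any of the 4 libraries left out, the log2 fold change stayed between -1.46 and -1.29 and the edgeR adjusted p ranged from 0.144 to 0.366, above the threshold. With all 8 libraries in 1 fit the edgeR adjusted p was 1. That fit had a common coefficient of variation of 75.7% for both models, and called 4 of 15349 genes in AMPKα2. The main fit, at 26.2%, called 51 of 10536 genes. At a threshold of 0.05 in the main fit *Ppp1r3c* was not called. In the AMPKα1 model *Ppp1r3c* read 70.0 and 229 CPM in KO against 172 and 50.2 in WT (0.44, edgeR adjusted p = 0.999), the groups overlapping over a wide range. The difference between the models, -1.81 ± 0.89 SE on the log2 scale, did not pass (edgeR interaction adjusted p = 0.746). Adipocyte markers, of which 6 were read and *Lep* had no APS, summed to 315 and 185 CPM in AMPKα2 KO against 583 and 254 in WT, and to 593 and 2341 in AMPKα1 KO against 861 and 582 in WT. *Ppp1r3c* and these markers were both highest in KO 2 among the AMPKα1 libraries, and the part of the markers in the result was not tested.

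The muscle-specific targeting subunit *Ppp1r3a* was not called in either model. It read 148 and 101 CPM in AMPKα2 KO against 75.1 and 80.5 in WT, with both KO libraries above (log2 fold change 0.68, edgeR adjusted p = 0.507, and 0.38 without KO 1), and had a log2 fold change of -0.40 in AMPKα1. *Stbd1*, which tethers glycogen to membranes, had at most 89 reads in a library. *Epm2a*, which encodes the glycogen phosphatase laforin, had at most 88 reads at its listed sites, while 620 reads over the 8 libraries lay at its annotated end (chr10:11459658) under no gene symbol.

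Of the side reactions, *Gpd1* links glycolysis to glycerol phosphate and *Fbp2* encodes the muscle fructose bisphosphatase, which runs opposite to phosphofructokinase. *Gpd1* read 316 and 366 CPM in AMPKα1 KO against 971 and 378 in WT (log2 fold change -0.98, edgeR adjusted p = 0.763), and without WT 1 the log2 fold change was -0.15. *Fbp2* read 207 and 147 CPM in AMPKα1 KO against 1262 and 139 in WT, and its log2 fold change of -1.98 ± 0.94 SE turned to 0.35 without WT 1. In AMPKα2 mice both genes overlapped between KO and WT, with log2 fold changes of -0.26 for *Gpd1* and 0.24 for *Fbp2*.

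Site by site, 168 APSs of these genes were tested in AMPKα1 mice and 189 in AMPKα2 mice, and edgeR called 0 in each, in comparisons that called 0.00454% of 44024 APSs and 0.056% of 23218 APSs. At an unadjusted p under 0.05 there were 13 and 14 (3.07% and 7.6% of all APSs tested). DESeq2 called 1 in AMPKα1 (1.37% of its APSs) and 2 in AMPKα2 (2.16%), and these 3 sites lie in *Pfkm* and *Ppp1r3c*. A test of whether the sites of a gene were used in different proportions passed for 0 of 28 genes in AMPKα1 (0.0262% of 7644 genes) and 0 of 21 in AMPKα2 (0.26% of 3843 genes). The lowest adjusted p in these edgeR usage tests was 0.408 for AMPKα1, *Pfkm* included, and 0.423 for *Ldha* in AMPKα2.

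The *Ppp1r3c* difference was seen at its annotated end (chr19:36731736), the site shown above with AATAAA. That site had 48 and 86 reads in AMPKα2 KO against 344 and 231 in WT, or 23.8 and 28.1 CPM against 88.9 and 96.1 (log2 fold change -1.83 ± 0.34 SE, edgeR adjusted p = 0.33, DESeq2 adjusted p = 0.0188). The end site held 60.8% and 76.1% of the gene's reads in KO and 82.7% and 88.5% in WT. No other *Ppp1r3c* site had more than 33 reads in an AMPKα2 library.

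*Pfkm* had 26 listed APSs, 16 of them in introns and 8 in coding exons, and the models differed in which were read. In the AMPKα1 libraries 91.7% to 93.2% of *Pfkm* reads lay at the annotated end (chr15:98132451), while in the AMPKα2 libraries 21.1% and 21.4% did in KO and 34.5% and 39.2% in WT. At this end site the AMPKα2 libraries had 207 and 474 reads in KO against 510 and 361 in WT (log2 fold change -0.13), so the higher *Pfkm* sum in AMPKα2 KO was not seen at the end of the transcript. In KO 2 it came largely from a site in intron 11 (chr15:98123928), with 173 and 1194 reads in KO against 193 and 105 in WT. On the CPM scale this site read 85.9 and 391 in KO against 49.9 and 43.7 in WT (2.35 ± 0.65 SE, edgeR adjusted p = 0.576, DESeq2 adjusted p = 0.0153). KO 2 carried most of it, and leaving out 1 library in turn gave log2 fold changes from 0.88 to 3.06. Without KO 2 the gene-level value was 0.52. In KO 1 the coding exon sites of *Pfkm* held 35.6% of its reads, against 12.5% in KO 2 and 26.1% and 28.8% in WT.

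A site in *Pfkm* intron 3 (chr15:98119133) was read in the AMPKα1 WT libraries, with 60 and 110 reads, and had 0 reads in both KO libraries. The floor of 3 reads per library gives a KO mean of 0.786 CPM on the TMM scale, against a WT mean of 33.1 CPM. By counting error alone, the site was at least 42.1-fold lower in the KO mice (edgeR adjusted p = 0.410, DESeq2 adjusted p = 0.00773). Of 62 sites of these genes reaching 50 reads in a KO mouse of this model, 11 (17.7%) were unread in its groupmate. The fold for the intron 3 site is therefore not a bound once the spread between these KO libraries is counted. In the AMPKα2 libraries the same site had 1 and 12 reads in KO against 9 and 0 in WT. The site at the end of *Pfkm* had 1412 and 1078 reads in AMPKα1 KO against 1127 and 1741 in WT (log2 fold change -0.82, edgeR adjusted p = 0.543).

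*Pkm*, which encodes pyruvate kinase (chr9:59656368-59679375, plus strand), has 6 sites under its own symbol, all in coding exons. Its annotated 3′ end (chr9:59679374), shown above with AATAAA, is listed under the neighbouring gene *Gramd2*, so the rule leaves it out. The 6 listed sites had 407 and 520 reads in AMPKα2 KO against 384 and 290 in WT, or 259 and 206 CPM against 113 and 137 (log2 fold change 0.89 ± 0.25 SE, edgeR adjusted p = 0.281), and 0 to 4 reads in each AMPKα1 library. The end site had 1778 and 2640 reads in AMPKα2 KO against 3216 and 2654 in WT, and with it added the log2 fold change was 0.11 ± 0.28 SE (edgeR adjusted p = 0.948). The end site had 4017 and 3234 reads in AMPKα1 KO against 7618 and 3356 in WT, where the summed value was -1.33 ± 0.67 SE (edgeR adjusted p = 0.763). The coding exon sites made up 18.6% and 16.5% of *Pkm* reads in AMPKα2 KO and 10.7% and 9.85% in WT, a split in which KO and WT do not overlap and which was not tested on its own.

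Such internal reads set the models apart across the pathway. Coding exon sites held 30, 41, 26 and 96 reads in the AMPKα1 libraries (0.0281% to 0.109% of the reads of these genes) and 1933 to 3009 reads in the AMPKα2 libraries (6.86% to 14.7%). The 73 coding exon sites lie in 19 genes, 60 of them had 0 reads in all 4 AMPKα1 libraries, and their reads summed to 193 in AMPKα1 and 10084 in AMPKα2. Over the genes outside the list, the coding exon share was 3.55% to 4.91% in AMPKα1 and 6.37% to 9.53% in AMPKα2, so it was present in both models there. Annotated ends held 84.2% to 89.6% of the reads of these genes in AMPKα1, 73.1% and 75.6% in AMPKα2 KO, and 81.1% and 82.3% in AMPKα2 WT. All shares of the listed genes here count the *Pkm* coding exon sites but not the *Pkm* end site listed under *Gramd2*. With that site the annotated-end shares would be higher and the coding exon shares lower. For genes outside the list they held 54.2% to 60.5% in AMPKα1, so the models were further apart there. In AMPKα2 those genes had 16.7% and 22.9% in KO against 24.3% and 21.9% in WT, with overlap. For the listed genes within AMPKα2, the share at annotated ends was lower in both KO libraries than in both WT libraries. Their coding exon shares were 14.7% and 7.78% in KO against 6.86% and 6.88% in WT. Outside the list the coding exon share was likewise higher in AMPKα2 KO, at 8.51% and 9.53% against 7.36% and 6.37% in WT. These shares are given as a description, and whether the library set, the age or the strain set the models apart cannot be told apart here.

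**Figure D4:**
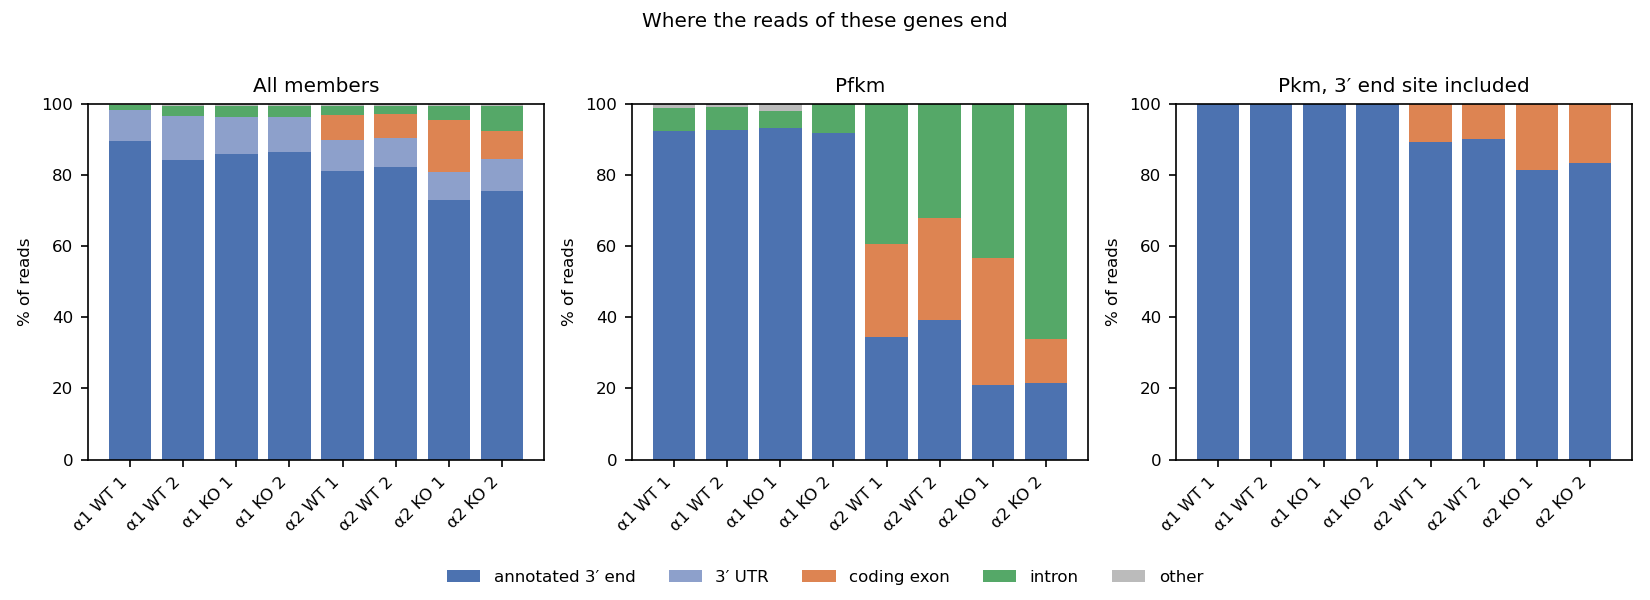
Stacked bars give the percent of reads by location (annotated 3′ end, 3′ UTR, coding exon, intron, other) in each of the 8 libraries, for all the genes together, for *Pfkm*, and for *Pkm* with the 3′ end site listed under *Gramd2* added. The bars for all the genes leave out that *Pkm* end site. Coding exon reads appear in the AMPKα2 bars and hardly at all in the AMPKα1 bars, and the *Pfkm* intron share reaches 66.1% in AMPKα2 KO 2.

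Other genes split their reads as well. *Hk2* had 66 and 70 reads in AMPKα2 KO against 123 and 75 in WT at a site in coding exon 11 (chr6:82735248) that had 0 reads in all AMPKα1 libraries, where *Hk2* was read at its annotated end (25 and 67 reads in KO, 5 and 2 in WT) and, in WT alone, at a site in an intron (13 and 3 reads). *Phkg1* introns held 46.4% to 55.5% of its reads in AMPKα1 and 50.6% to 64.2% in AMPKα2. *Gbe1* introns held 40.1% to 57.7% of its reads in AMPKα1 and 13.2% to 37.9% in AMPKα2. By contrast *Gapdh*, *Fbp2*, *Ldhb* and *Gaa* ended at their annotated end for at least 95.9% of reads in every library.

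The size of the KO effect was not called different between the models for any gene of the list. Fitted on all 8 libraries, the interaction of genotype with model passed for 0 of 37 genes, in a test that called 0.0586% of 15349 genes, with 6 of the 37 at an unadjusted p under 0.05 (6.93% of all genes) and 0 called by DESeq2 (1.62% of all genes). Of their 293 APSs the same test called 0 in edgeR (0.143% of all APSs), with 35 at an unadjusted p under 0.05 (6.96% of all APSs), and 2 in DESeq2 (1.1% of all APSs), the *Pfkm* intron 3 site and a *Gpd1* site (chr15:99724738).

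Fibre type markers are given beside these values because glycolytic enzymes are abundant in fast fibres. The 10 fast fibre markers summed to 101441 and 92824 CPM in AMPKα1 KO against 211216 and 124203 in WT, with all 10 fitted values below 0. For 8 of them both KO libraries lay below both WT libraries, where 18.9% of all genes did. At an unadjusted edgeR p under 0.05 there were 4 (4.23% of all genes), and DESeq2 called 1 (1.14%). In AMPKα2 mice the same markers summed to 80150 and 64913 CPM in KO against 64202 and 67297 in WT, with 7 fitted values above 0 and 3 below. Without overlap, 4 were higher in KO (18.7% of all genes) and 1 was lower (20.5%), while 2 had an unadjusted edgeR p under 0.05 (8.44%) and DESeq2 called 0 (1.27%). The 10 slow fibre markers summed to 2755 and 2850 CPM in AMPKα2 KO against 891 and 1820 in WT, with all 10 fitted values above 0. Of these, 8 were higher in KO without overlap (18.7% of all genes) and 7 had an unadjusted edgeR p under 0.05 (8.44%). EdgeR called 0 (0.484% of all genes) and DESeq2 called 2 (1.27%). The slow fibre markers summed to 6624 and 2842 CPM in AMPKα1 KO against 2522 and 2038 in WT, with 8 fitted values above 0 and 2 below. In that model 3 were higher in KO without overlap (13.6% of all genes), 2 had an unadjusted edgeR p under 0.05 (4.23%) and DESeq2 called 1 (1.14%). No marker of either list passed in edgeR, and the part of fibre type in the values of the pathway genes was not tested.

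Of 46 further enzymes and regulators of glucose and glycogen use that were listed beside the 39 genes, 33 were in the table. None passed in edgeR in either model, where 0% and 0.484% of all genes did. In AMPKα1 33 were tested, with 1 at an unadjusted edgeR p under 0.05 (4.23% of all genes) and 1 called by DESeq2 (1.14%). In AMPKα2 27 were tested, with 2 at an unadjusted edgeR p under 0.05 (8.44% of all genes) and 0 called by DESeq2 (1.27%). Their fitted values lay on both sides of 0, at 17 above and 16 below in AMPKα1 and 15 above and 12 below in AMPKα2. *Slc37a4*, the glucose phosphate carrier of the endoplasmic reticulum, read 42.7 and 21.5 CPM in AMPKα1 KO against 196 and 163 in WT (log2 fold change -2.48, edgeR adjusted p = 0.763, DESeq2 adjusted p = 0.0437). *Pgm5*, a relative of phosphoglucomutase, read 46.7 and 38.4 CPM in AMPKα1 KO against 9.29 and 15.4 in WT (1.78). *Pdk4*, the kinase that shuts pyruvate out of oxidation, read 140 and 105 CPM in AMPKα2 KO against 165 and 321 in WT (-0.99). *Pdha1*, the pyruvate dehydrogenase subunit it acts on, read 118 and 95.3 CPM in AMPKα2 KO against 69.8 and 62.1 in WT (0.69, edgeR adjusted p = 0.437).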

How the data were processed

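Gastrocnemius WTTS-seq libraries of 2 KO and 2 WT mice per model, 8 in all, were used. According to the study's methods, the authors sequenced on an Ion PGM, filtered with FASTX Toolkit 0.0.13.1, trimmed leading Ts, kept reads of at least 16 bases, mapped with TMAP 3.4.1, clustered read ends within 24 bases and assigned genes with Cuffcompare 2.2.1. The submitters' processing notes name GRCm38.p5. The deposited values are raw counts of reads per APS, with a smallest sum of 16, and 9.33% of reads lie at sites without a gene symbol, left out of gene sums.

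Counts were summed per gene and tested in R 4.3.3 with edgeR 4.0.16 and limma 3.58.1, using TMM factors, robust quasi-likelihood, features with at least 16 reads in the libraries fitted, and Benjamini-Hochberg adjusted p under 0.1. CPM values are TMM-scaled within a model, errors are SDs over 2 mice, and SEs of log2 fold changes come from the F statistic. Site usage was tested with edgeR's diffSpliceDGE, and differences between models as an interaction. DESeq2 1.42.0, the authors' tool, was an alternative. Sites were placed on GENCODE M21, and an A-rich stretch meant 7 consecutive As or 8 in 10 bases. The code was tested on simulated data with known changes. Of genes changed 4-fold, the gene test recovered 2.92% in AMPKα1 and 64.8% in AMPKα2. Of 4-fold changes, the site test recovered 0% in AMPKα1 and 6.88% in AMPKα2, and the usage test 0% and 10.4%. Of 16-fold changes, the site test recovered 1.25% and 91%, and the usage test 0.633% and 84.2%. A gene, site or split of sites not called in either model is therefore not shown to be unchanged. Tables and figures were made in Python 3.11.15 with numpy 2.4.6, pandas 2.3.3 and matplotlib 3.10.9.

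The members, marker lists and tests were chosen with earlier results of these data known. Named are all members, their most-read APSs, APSs called by edgeR or DESeq2, and, of the further pathway genes, those called or the 4 with the lowest unadjusted p. *Hk2* exon 11, *Gbe1* and *Phkg1* introns and the fit with the *Pkm* end added were chosen after their values were seen. Sequences came from GENCODE transcripts, so intronic sites are shown without sequence.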

Additional observations from a re-analysis of the deposited data

How the results depend on the processing

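KO and WT libraries share replicate numbers in their titles, but same-numbered libraries did not deviate together (correlations of 0.03 in AMPKα1 and -0.00489 in AMPKα2), so the numbers were not used as pairs. With the replicate number as a replicate block, *Ppp1r3c* had an edgeR adjusted p of 0.0748 and the gene-level calls of members did not move. Member APSs called in AMPKα2 went from 0 to 3 of 189 (*Pfkm* chr15:98123928 and chr15:98125076 and the *Ppp1r3c* end), and all APSs called from 13 to 520 of 23218. Without a filter, AMPKα2 calls were 376 of 14574 genes (2 of 37 members) and 557 of 50017 APSs (4 of 283 member APSs). With all 8 libraries in 1 fit, AMPKα1 calls were 83 of 15349 genes and 432 of 56483 APSs. Library totals called 49 of 44024 APSs in AMPKα1. With at least 10 reads in every library, 7 of 908 genes changed usage in AMPKα2. In AMPKα1, genes called went from 0 to 1 with DESeq2 and to 1 with all 8 libraries in 1 fit, *Pfkfb3* each time, and stayed at 0 to 0 with 1 library left out. APSs called in AMPKα1 went from 0 to 1 with DESeq2 and 1 with library totals (*Pfkm* intron 3), to 2 with all 8 libraries in 1 fit (that site and *Gpd1* chr15:99724738), and ranged from 0 to 5 with 1 library left out. The 5 came without WT 2, when the lone WT library is WT 1 and is assumed to vary like KO: the main sites of *Aldoa*, *Fbp2*, *Gapdh*, *Ldha* and *Tpi1*. In AMPKα2, genes called went from 1 to 0 at adjusted p under 0.05, to 0 with all 8 libraries in 1 fit, to 0 with any library left out (0 to 0), and to 2 with no filter (*Ppp1r3c* and *Pkm*). APSs called in AMPKα2 went from 0 to 2 with DESeq2 and 4 with no filter (the 3 above and *Tpi1* chr6:124812854), and ranged from 0 to 1 with 1 library left out (*Pfkm* intron 11, without KO 1). Genes with changed site usage in AMPKα2 went from 0 to 1 with at least 10 reads in every library (*Gpd1*) and ranged from 0 to 5, the 5 without KO 2 (*Aldoa*, *Gpd1*, *Gpi1*, *Ldha*, *Pgam2*). The interaction called 0 to 2 genes with 1 library left out (*Ldhb* and *Pfkfb3*, without AMPKα1 KO 1). The AMPKα1 median of -0.37 became -0.10 with library totals and -0.67 with the most-read site per gene, and ranged from -0.49 to -0.0594 (without WT 1) with 1 library left out. The AMPKα2 median of -0.15 became -0.33 with library totals and -0.10 with sense sites only, and ranged from -0.19 to 0.0253, at 0.0253 without KO 2, -0.07 without WT 1 and -0.07 without WT 2. Of 1036 values of single genes and sites under alternatives, 893 kept direction and side of the threshold, 84 kept both but moved by more than the replicate spread, 13 gained and 6 lost a call, and 40 changed sign, in 23 results of which 0 were called. The changed signs in AMPKα1 were, with library totals, *Pfkfb4* (0.27), *Pgam2* (0.13) and *Pygb* (0.0813), with sense sites *Pygb* (0.77), with the most-read site *Pfkl* (-0.72), and with the replicate block (0.0568) or at least 10 reads in every library (0.0091) *Pfkfb4*. In AMPKα2 they were *Hk2* (-0.0078) and *Gaa* (0.0139) with the most-read site. With 1 library left out, these AMPKα1 log2 fold changes ranged across 0: *Hk1* -7.53 to 0.21, *Pfkl* -0.58 to 1.25, *Pfkfb1* -0.22 to 1.52, *Pfkfb4* -0.54 to 0.72, *Gapdh* -2.19 to 0.78, *Pgam2* -0.41 to 0.13, *Pygb* -4.72 to 0.85, *Gaa* -0.66 to 0.19, *Gbe1* -0.29 to 0.62, *Ugp2* -0.42 to 0.70, *Epm2a* -0.12 to 3.88, *Ppp1r3c* -0.66 to 1.58 (its end site -0.84 to 1.54) and *Fbp2* -2.79 to 0.35. The AMPKα2 ones were *Hk1* -1.54 to 0.13, *Pfkl* -0.58 to 0.18, *Aldoa* -0.12 to 0.0065, *Pgam2* -0.66 to 0.13, *Pygb* -0.63 to 0.29, *Phka1* -0.27 to 0.0258, *Gaa* -0.33 to 0.23 and *Gpd1* -0.60 to 0.0163. Where no value above shows it, the cause was not tested.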

Other observations

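Other cell types that whole muscle holds were measured beside these genes. Red blood cell markers, of which 5 were read and *Slc4a1* had no APS, summed to 1489 and 973 CPM in AMPKα2 KO against 750 and 1134 in WT, and to 486 and 886 CPM in AMPKα1 KO against 1185 and 567 in WT. Fibroblast markers (6 genes) summed to 3675 and 2147 CPM in AMPKα2 KO against 1698 and 2239 in WT, and to 11180 and 11125 CPM in AMPKα1 KO against 12257 and 15958 in WT. Endothelial markers (6 genes) summed to 76.4 and 83.8 CPM in AMPKα2 KO against 85.4 and 104 in WT, and to 386 and 372 CPM in AMPKα1 KO against 497 and 448 in WT. Macrophage markers (6 genes, 5 of them summed in AMPKα2) ranged from 74.9 to 165 CPM over the 8 libraries. Smooth muscle markers (5 genes, 4 of them summed in AMPKα2) ranged from 2827 to 6558 CPM. At both ends of that range nearly all of the sum was *Des*, also counted above as a defining gene of striated muscle. *Des* read 2777 CPM in AMPKα2 KO 1, the lowest sum, and 6445 CPM in AMPKα1 WT 1, the highest. The sum therefore does not measure smooth muscle. No gene of these lists passed in edgeR, and their part in the values of the glycolysis and glycogen genes was not tested.

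Several sites in the loci of these genes are listed elsewhere and were not counted for them. A site in an intron of the longest *Phkg1* annotation (chr5:129881160) had 13145 reads over the 8 libraries under *Chchd2*, a gene that overlaps it. *Pfkp* has an antisense site with 400 reads under *Pitrm1*, and *Gapdh* has one with 152 reads under *Iffo1*. In *Gys1*, a site in intron 10 (chr7:45447085), named after its values were seen, had 15 and 8 reads in AMPKα1 KO against 49 and 121 in WT, while the main site in its 3′ UTR had 1850 and 1801 reads in KO against 516 and 1661 in WT.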
